A study of Mus musculus with 4 samples.

Results

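Astrocytes clear glutamate from the synaptic space, pass ions and metabolites to each other through gap junctions, and move water and amino acids across membranes that contact vessels and synapses. The transporters, connexins, water channel and marker proteins behind these functions are acquired step by step as radial glia and neural stem cells of the postnatal hippocampus become astrocytes, and part of them is already present in the stem cells. Described here are 10 such genes, chosen by symbol as known astrocyte genes, out of 48178 genes in the table. They comprise the glutamate transporter genes Slc1a2 and Slc1a3, the connexin genes Gja1 and Gjb6, the water channel gene Aqp4, its membrane neighbour Mlc1, the amino acid transporter gene Slc7a10, the neurotensin receptor gene Ntsr2, and the markers Aldh1l1 and S100b. All 10 were found in the table and all 10 passed the filter on low values, Gjb6 only through the FGF13Aoe libraries, in which alone it reached a normalized count of 10.

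RNA was sequenced from hippocampal cells of newborn C57BL/6 mice (postnatal day 0) grown as neurospheres, floating clusters of neural stem cells and their progeny. EGF and FGF-2, each at 20 ng/ml, were in the medium, and spheres were collected on day 7. The FGF13Aoe group (2 libraries) had the genotype hGFAPCre+, ROSA26FGF13A LSL/+, and the control group (2 libraries) had hGFAPCre+, ROSA26FGF13A +/+. By their labels both groups carry hGFAPCre, in which the human GFAP promoter drives Cre recombinase, and this promoter is active in neural stem cells as well as in astrocytes. Cells of 1 mouse were plated in 2 wells, and nothing in the labels says whether the 2 libraries of a genotype stem from different pups. The p-values therefore measure the spread between these libraries, which may be technical.

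Reads assigned to genes numbered 9724413 and 11389767 in the FGF13Aoe libraries and 11481591 and 14092685 in the control libraries. Fgf13, the gene named in the genotype, had normalized read counts of 5410 and 4447 in FGF13Aoe and 772 and 769 in control, so the labels held for this gene. Markers of neural progenitors and of the dorsal forebrain were present in every library, with summed normalized counts of 60294 and 74322 in FGF13Aoe against 70891 and 76886 in control for 9 progenitor genes, and of 6787 and 6528 in FGF13Aoe against 8822 and 5935 in control for 6 forebrain genes. Prm1, a sperm chromatin gene named after its values were seen, had 9.67 and 10.1 in FGF13Aoe and 1040 and 722 in control. This gap went with the groups although their labels give the same Cre, and whether the genotypes differ in more than the ROSA26FGF13A allele was not tested, so the group difference in each result below is that between libraries as labelled. The Y-linked gene Ddx3y had 0 and 0 reads in the FGF13Aoe libraries and 5 and 180 reads in the control libraries. The control libraries thus differed from each other in this gene, and their spread may be more than technical. Sex cannot be separated from the group here, and its part in the results below was not tested.

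Of the 10 astrocyte genes, 4 rose in FGF13Aoe and 0 fell, by limma with Benjamini-Hochberg adjusted p under 0.05 over 15204 tested genes. The 4 were Ntsr2, Gjb6, Aqp4 and Gja1. Over all tested genes 35.3% passed at the same threshold, 16.2% as rises and 19.1% as falls. In all 10 genes both FGF13Aoe libraries lay above both control libraries, an order found in 36.2% of tested genes, while 37.5% had the opposite order. The median log2 change of the 10 genes was 0.57, against -0.01 for all tested genes, and the 6 that did not pass had log2 changes between 0.22 and 0.58. Together the 10 genes took 0.586% and 0.528% of gene-assigned reads in the FGF13Aoe libraries and 0.381% and 0.361% in the control libraries. In RNA from whole spheres, more astrocytic cells and more RNA per cell cannot be told apart. Without control replicate 1 the genes that passed were 3 of 10 (Ntsr2, Aqp4 and Gja1), when 3.62% of tested genes rose, without control replicate 2 they were the same 4, when 5.06% rose, and without FGF13Aoe replicate 2 they were 6 of 10, when 18.6% rose.

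**Figure D1:**
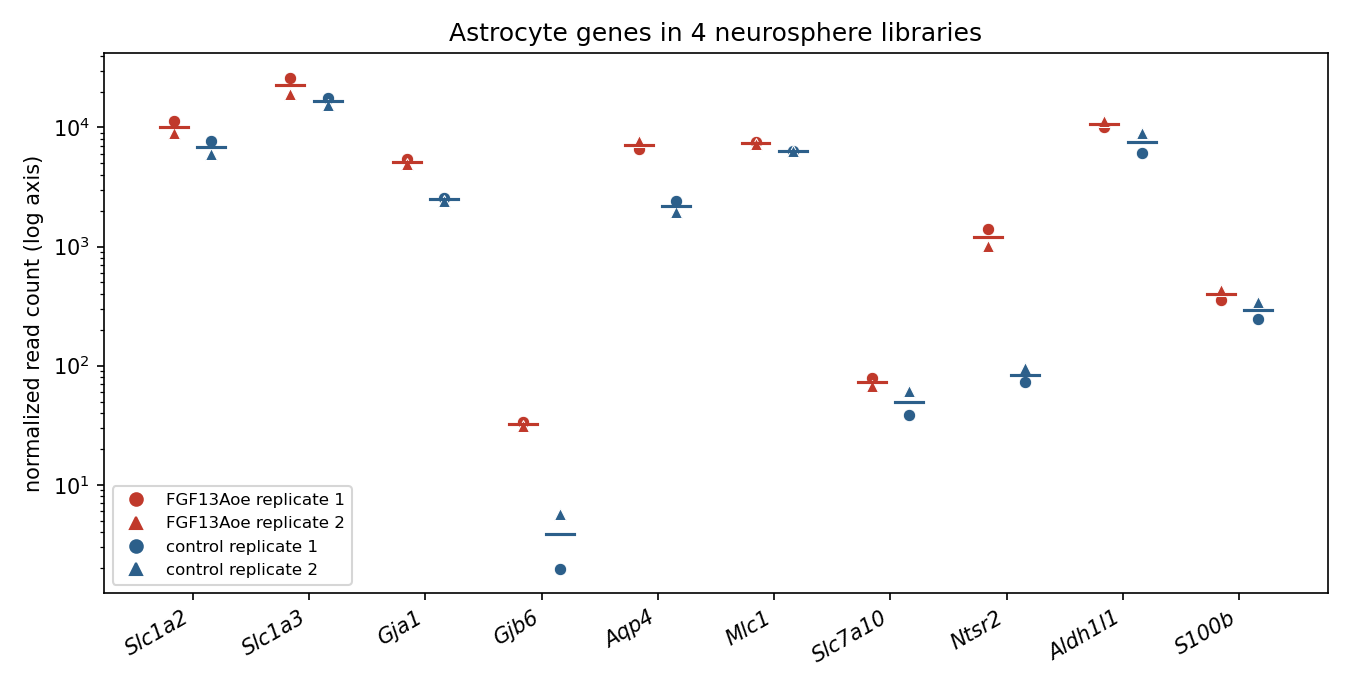
Normalized read count (log axis) of each of the 10 astrocyte genes in the 4 libraries, with FGF13Aoe to the left and control to the right of each gene. Circles are replicate 1, triangles replicate 2 and bars the mean of 2 libraries. Ntsr2 and Gjb6 show the widest gaps between groups, and Mlc1 one of the narrowest.

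The glutamate transporters take up synaptically released glutamate together with sodium, and Slc1a3 precedes Slc1a2 during glial development. Slc1a3 (ENSMUSG00000005360, GRCm38 chromosome 15, 8634124 to 8710764) had 26227 and 19202 normalized reads in FGF13Aoe and 17764 and 15300 in control. This is a log2 change of 0.44 ± 0.23 (SE from limma, n = 2 libraries per group), with an adjusted p of 0.176. The lower FGF13Aoe library lay only a little above the higher control library, and the call did not pass. Slc1a2 (ENSMUSG00000005089, chromosome 2, 102658659 to 102790784), the main glutamate transporter of mature forebrain astrocytes, had 11252 and 8914 normalized reads in FGF13Aoe and 7696 and 5974 in control, a log2 change of 0.56 ± 0.20 (adjusted p = 0.0745). In the authors' deposited table it passes, with a log2 fold change of 0.55 and an adjusted p of 0.0292. Without FGF13Aoe replicate 2 both transporters passed, with log2 changes of 0.73 for Slc1a2 (adjusted p = 0.0333) and 0.67 for Slc1a3 (adjusted p = 0.0323). The ratio of Slc1a2 to Slc1a3 reads was 0.429 and 0.464 in FGF13Aoe and 0.433 and 0.390 in control, so the balance of the pair overlapped between groups (exact permutation p = 0.6667, two-sided; 0.3333 is the smallest p that 2 libraries against 2 allow).

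Genes that handle glutamate after uptake, and other transporters of the family, moved both ways. Of 18 listed genes 17 were tested, 4 rose and 5 fell, with a median log2 change of -0.39. Glul, glutamine synthetase, which converts the glutamate taken up by astrocytes to glutamine, rose to 12976 and 10363 normalized reads in FGF13Aoe, against 6735 and 6908 in control (log2 change 0.77 ± 0.17, adjusted p = 0.0196). Glud1, the mitochondrial glutamate dehydrogenase, rose by 1.32 on the log2 scale, and Slc1a1, the transporter of the same family found mainly in neurons, by 1.36. A gene on the other strand covers 31.9% of Slc1a1 exon sequence, and whether counting was strand-specific is not known here. Got1, the cytosolic aspartate aminotransferase, had 301 and 284 normalized reads in FGF13Aoe and 1269 and 1224 in control (log2 change -2.09 ± 0.12, adjusted p = 0.00111), and the metabotropic receptor gene Grm5 fell by 0.86. The list had 4 rises and 8 falls without FGF13Aoe replicate 1. It had 2 rises and 1 fall without control replicate 1, and 1 and 1 without control replicate 2. Glul and Grm5 lost their calls both times, with log2 changes of 0.75 and 0.78 for Glul and -0.84 and -0.89 for Grm5, and Glud1 did not pass when control replicate 2 was left out (1.205, adjusted p = 0.0517).

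The connexins form the channels that couple astrocytes to each other, with Gja1 present from the stem cell stage on and Gjb6 appearing later in postnatal maturation. Gja1 (ENSMUSG00000050953, chromosome 10, 56377330 to 56402513) had 5388 and 4912 normalized reads in FGF13Aoe and 2581 and 2406 in control. Replicates lay close together and the groups stood apart by a log2 change of 1.04 ± 0.12 (adjusted p = 0.00371), which is 2.06-fold. Gjb6 (ENSMUSG00000040055, chromosome 14, 57123303 to 57133611) was the least abundant of the 10 genes per exon length, with normalized counts of 33.8 and 31.4 in FGF13Aoe and 1.98 and 5.69 in control. These counts stand for 28 and 31 reads in FGF13Aoe and 2 and 7 reads in control. The log2 change was 2.91 ± 0.54 (adjusted p = 0.0118), and the ratio of reads, scaled for depth, was 8.08 with an exact 95% interval of 3.98 to 18.5, which covers counting error only. Without control replicate 1 Gjb6 did not pass (log2 change 2.33, adjusted p = 0.0558). Gjb6 reads were 0.00628 and 0.00639 of Gja1 reads in FGF13Aoe and 0.000768 and 0.00237 of them in control, a higher share in both FGF13Aoe libraries (exact permutation p = 0.3333, the smallest possible).

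Other channel-forming genes of gap junctions were few. Of 17 listed connexin, pannexin and junction scaffold genes only 8 passed the filter on low values, of which 2 rose and 2 fell, with a median log2 change of 0.34. The pannexin gene Panx3 had 0 reads in all libraries. Gjc3, a connexin of oligodendrocytes, had 277 and 562 normalized reads in FGF13Aoe and 57.5 and 138 in control (log2 change 2.13 ± 0.51, adjusted p = 0.0245). The pannexin genes Panx1 and Panx2 fell, with log2 changes of -0.79 and -1.79. Gjb2, a further connexin reported in astrocytes, had 10.9 and 10.1 normalized reads in FGF13Aoe and 3.96 and 3.25 in control. It passed the filter on low values only through the FGF13Aoe libraries, and its change did not pass (adjusted p = 0.0818). The list had 0 calls and a median of 0.22 without control replicate 1, with log2 changes of 1.505 for Gjc3, -0.71 for Panx1 and -1.65 for Panx2, and without control replicate 2 only Gjc3 passed. Without FGF13Aoe replicate 2 Gjc3 had a log2 change of 1.62 (adjusted p = 0.0685).

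Aqp4 and Mlc1 encode membrane proteins of the astrocyte endfoot. Aqp4, the water channel, has its gene on chromosome 18 (ENSMUSG00000024411, 15389496 to 15410982) and had 6599 and 7745 normalized reads in FGF13Aoe against 2424 and 1957 in control. Its log2 change was 1.71 ± 0.16 (adjusted p = 0.00211), a 3.28-fold rise. Mlc1 (ENSMUSG00000035805, chromosome 15, 88955884 to 88979007), whose loss causes a leukoencephalopathy with brain swelling in humans, had 7531 and 7304 normalized reads in FGF13Aoe and 6388 and 6319 in control. Its replicates differed least of the 10 genes, and the small gap between groups did not pass (log2 change 0.22 ± 0.13, adjusted p = 0.223). The ratio of Aqp4 to Mlc1 reads was 0.876 and 1.06 in FGF13Aoe and 0.379 and 0.310 in control. The 2 groups did not overlap in this ratio, with a difference of 1.49 log2 units (exact permutation p = 0.3333, the smallest possible).

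Among 25 listed genes of endfeet, ion balance and cell volume, 24 were tested, 12 rose and 1 fell, with a median log2 change of 0.50. The sodium pump subunit gene Atp1b2 had 17928 and 12815 normalized reads in FGF13Aoe and 5845 and 5294 in control (log2 change 1.45 ± 0.20, adjusted p = 0.00557). Cav1, a coat protein of caveolae, rose by 2.60, the glial receptor gene Gpr37l1 by 1.76 and the extracellular matrix gene Agrn, whose product organises Aqp4 at the endfoot, by 0.77. Of the direct partners of Mlc1, the chloride channel gene Clcn2 rose by 0.47 (adjusted p = 0.0388), and the adhesion gene Hepacam had 3318 and 3275 normalized reads in FGF13Aoe and 2863 and 2716 in control (log2 change 0.24, adjusted p = 0.147). Of the genes that hold or accompany Aqp4 at the endfoot, Dag1 (log2 change 0.06, adjusted p = 0.722) and the potassium channel gene Kcnj10 (-0.44, adjusted p = 0.115) did not pass. The related potassium channel gene Kcnj16 was the single listed gene that fell, with 184 and 406 normalized reads in FGF13Aoe and 783 and 1065 in control (-1.74 ± 0.38, adjusted p = 0.0195). The endfoot list had 2 rises and 0 falls without control replicate 1, and 3 and 0 without control replicate 2, with Atp1b2 at 1.52 and 1.38, Agrn at 0.77 and 0.78, Clcn2 at 0.51 and 0.43 and Kcnj16 at -1.96 and -1.51 on the log2 scale. Without FGF13Aoe replicate 1 the list had 7 rises, and Clcn2 (0.44) did not pass, and without FGF13Aoe replicate 2 Kcnj10 fell (-0.67, adjusted p = 0.0115).

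Slc7a10 exchanges small neutral amino acids, D-serine among them, and pairs with the heavy chain encoded by Slc3a2. Slc7a10 (ENSMUSG00000030495, chromosome 7, 35186385 to 35201114) had 78.5 and 67.8 normalized reads in FGF13Aoe and 38.6 and 61.0 in control. The groups were separated by less than the gap between the control replicates, and the call did not pass (log2 change 0.58 ± 0.32, adjusted p = 0.207). Lrp3, on the other strand, covers 17.9% of its exon sequence. Slc3a2 had 4021 and 1833 normalized reads in FGF13Aoe and 2698 and 2903 in control, so the FGF13Aoe libraries lay on either side of both control libraries (log2 change -0.04, adjusted p = 0.932). With FGF13Aoe replicate 1 left out Slc3a2 fell (-0.61, adjusted p = 0.0137), and with FGF13Aoe replicate 2 left out it rose (0.52, adjusted p = 0.0193). Of 16 listed genes of serine and glycine metabolism and transport 15 were tested, 3 rose (Phgdh, Slc6a11 and Amt, by 0.63, 0.62 and 0.62) and 5 fell, with a median log2 change of -0.04. Phgdh is the first enzyme of serine synthesis. Log2 falls were -1.43 for Shmt1, which interconverts serine and glycine, and -0.85 and -0.65 for Dld and Gcsh of the glycine cleavage system. The serine and glycine list had 0 rises and 1 fall (Shmt1) without control replicate 1, and 0 of each without control replicate 2. In these 2 sets the log2 changes were 0.65 and 0.61 for Phgdh, 0.475 and 0.76 for Slc6a11, 0.45 and 0.79 for Amt, -0.805 and -0.90 for Dld, -0.66 and -0.64 for Gcsh, and -1.59 and -1.265 for Shmt1. Slc6a11 and Amt also missed the threshold without FGF13Aoe replicate 2, at 0.505 and 0.51.

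Aldh1l1 encodes a cytosolic folate enzyme that oxidises formyl-tetrahydrofolate and is widely used as an astrocyte marker. Aldh1l1 (ENSMUSG00000030088, chromosome 6, 90486427 to 90600203) had 10025 and 11232 normalized reads in FGF13Aoe and 6133 and 8898 in control. The control libraries differed by 1.45-fold, and the log2 change of 0.52 ± 0.22 did not pass (adjusted p = 0.109). Its exons overlap predicted genes over 13.4% of their bases. The mitochondrial relative Aldh1l2 rose to 1475 and 1212 normalized reads in FGF13Aoe, against 802 and 770 in control (log2 change 0.77 ± 0.14, adjusted p = 0.0112). Of 15 listed folate genes 13 were tested, 2 rose, Aldh1l2 among them, and 5 fell, with a median of -0.47. Tyms, which works in the synthesis of thymidine nucleotides for DNA, fell with a log2 change of -1.42, and Mthfd1 with one of -0.83. The folate list had 0 rises and 1 fall without control replicate 1, and 0 of each without control replicate 2, with log2 changes of 0.79 and 0.74 for Aldh1l2, -1.59 and -1.25 for Tyms and -0.89 and -0.78 for Mthfd1.

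Ntsr2, a receptor of the peptide neurotensin that marks astrocytes in the mouse brain, changed most among the 10 genes. Ntsr2 (ENSMUSG00000020591, chromosome 12, 16653382 to 16660227) had 1391 and 1006 normalized reads in FGF13Aoe and 72.3 and 96.0 in control. The lowest FGF13Aoe value was many times the highest control value, and the log2 change was 3.81 ± 0.23 (adjusted p = 0.00111), which is 14.04-fold. Of 15204 tested genes 0.132% had a larger log2 change. Of 4 other genes of neurotensin signalling 3 were tested, 0 rose and 2 fell, with a median log2 change of -0.67. Ntsr1, the other G protein-coupled receptor of the peptide, had 6.04 and 24.3 normalized reads in FGF13Aoe and 165 and 167 in control (-3.65 ± 0.61, adjusted p = 0.00889). The sorting receptor genes Sort1 and Sorl1 had log2 changes of 0.38 (adjusted p = 0.0588) and -0.67 (adjusted p = 0.0112). Nts, the gene of the peptide itself, had 0 reads in both FGF13Aoe libraries, where a count of 0 allows up to 3 reads, and 19 and 6 reads in control, too few for the filter on low values. With control replicate 1 left out neither Ntsr1 (-3.65, adjusted p = 0.0544) nor Sorl1 (-0.67, adjusted p = 0.103) passed, without control replicate 2 Sorl1 did not (-0.67, adjusted p = 0.0967), and without FGF13Aoe replicate 2 Sort1 passed (0.48, adjusted p = 0.0211).

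S100b encodes a calcium-binding protein that is made by astrocytes and also by oligodendrocyte lineage and ependymal cells. S100b (ENSMUSG00000033208, chromosome 10, 76253853 to 76261159) had 359 and 433 normalized reads in FGF13Aoe and 246 and 342 in control. The highest control library nearly reached the lowest FGF13Aoe library, and the log2 change of 0.44 ± 0.21 did not pass (adjusted p = 0.152). The 15 listed genes were those of other S100 proteins, of an S100-binding protein and of the S100B receptor (Ager). Of the 15, 9 were tested and 4 rose, with a median log2 change of 1.16. These were S100a16 (1.31), S100a6 (1.76), S100a1 (1.197) and Ager (1.17). Ager had 78.5 and 76.9 normalized reads in FGF13Aoe and 38.6 and 30.1 in control, with an adjusted p of 0.0268. It did not pass in any set of 3 libraries, where its log2 changes ran from 0.99 to 1.34. This list had 2 rises and a median of 0.73 without control replicate 1, where S100a1 did not pass (1.11, adjusted p = 0.0575), and 3 rises and 1 fall without FGF13Aoe replicate 1.

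**Figure D2:**
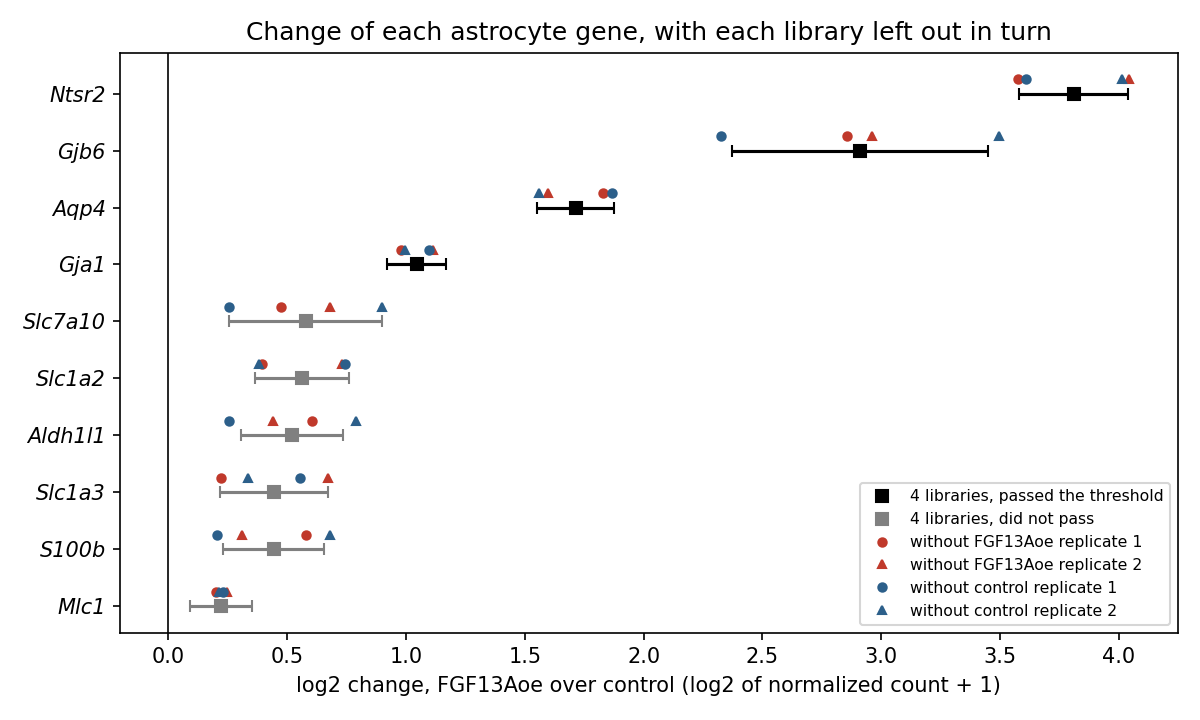
Log2 change of each gene, FGF13Aoe over control, on the scale of log2(normalized count + 1). Squares are the fit to 4 libraries with its SE as a bar, black where the gene passed, and small symbols are fits without 1 library. Ntsr2, Gjb6, Aqp4 and Gja1 stand apart from the 6 genes below 0.6, and Gjb6 moves most when a control library is left out, to between 2.33 and 3.49.

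Levels of different genes can be compared per length of their exons, here as normalized reads per kb of the union of annotated exons. In FGF13Aoe the order began with Slc1a3 (2661 ± 582, SD, n = 2), Mlc1 (2648 ± 57.3) and Aldh1l1 (2353 ± 189). The 2 values of Slc1a3 enclosed those of Mlc1 and overlapped those of Aldh1l1, so the place of Slc1a3 among them is within its spread. Aqp4 (1151 ± 130), Slc1a2 (768 ± 126), Gja1 (502 ± 32.8), Ntsr2 (384 ± 87.2), S100b (267 ± 35.4), Slc7a10 (34.7 ± 3.59) and Gjb6 (12.2 ± 0.649) followed with no overlap between neighbours. In control Mlc1 came first (2268 ± 17.6), followed by Slc1a3 (1936 ± 204) and Aldh1l1 (1664 ± 433), whose values overlapped. Slc1a2 (520 ± 92.7) stood above Aqp4 (352 ± 53.0) in control, and Gja1 (243 ± 12.0) and S100b (198 ± 45.8) stood above Ntsr2 (27.0 ± 5.37), which overlapped Slc7a10 (23.6 ± 7.496). Gjb6 was last (1.43 ± 0.982). Thus Aqp4 stood before Slc1a2, and Ntsr2 before S100b, in FGF13Aoe, and both pairs were in the opposite order in control. By the longest annotated transcript in place of the exon union, Slc1a3 came first in both groups, above Mlc1 and Aldh1l1 with no overlap. It stood at 5122 in FGF13Aoe and 3728 in control, against 2648 and 2268 for Mlc1. By the same length Gja1 stood at 1324 in FGF13Aoe and 641 in control, above Slc1a2, at 870 in FGF13Aoe and 590 in control. The control values of Gja1 and Slc1a2 overlapped (619 to 663 for Gja1 and 515 to 664 for Slc1a2).

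**Figure D3:**
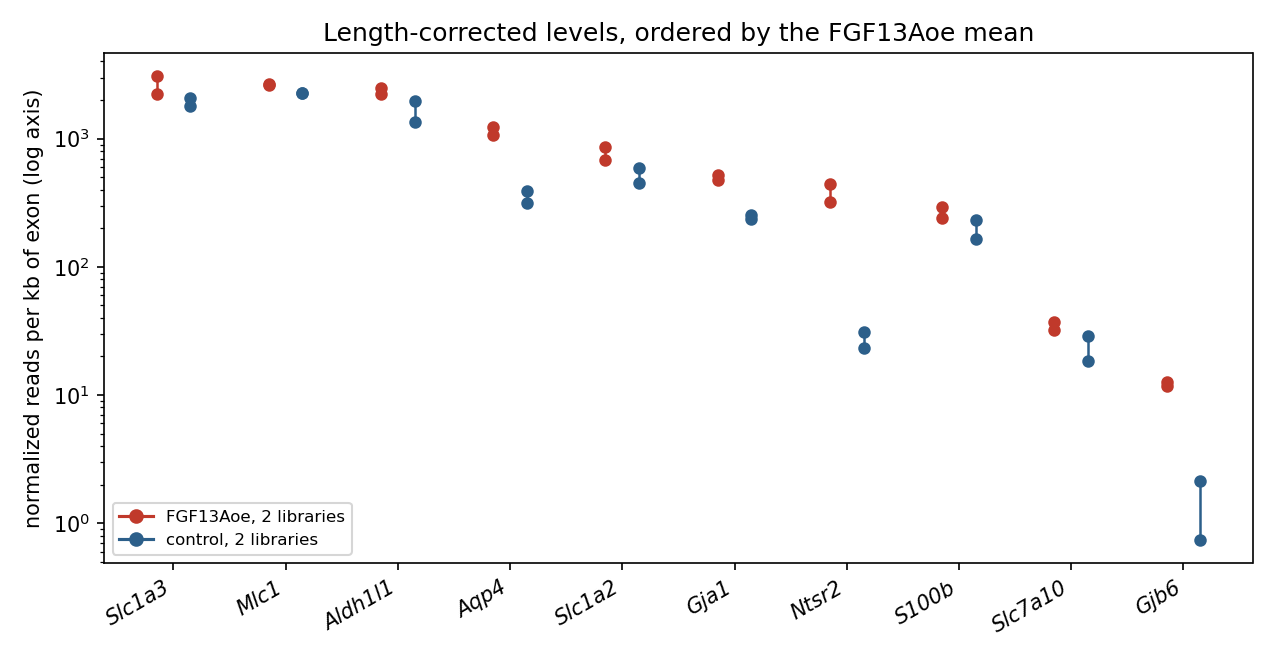
Normalized reads per kb of exon (log axis), genes ordered by the FGF13Aoe mean, with FGF13Aoe to the left and control to the right. Points are the 2 libraries of a group, joined by a line. The genes span from 2661 for Slc1a3 to 12.2 for Gjb6 in FGF13Aoe, and Ntsr2 lies near Slc7a10 in control only.

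Differences between replicates did not run the same way in all 10 genes. Slc1a2, Slc1a3, Gja1 and Mlc1 were higher in replicate 1 of both groups, by 1.03-fold (Mlc1) to 1.37-fold (Slc1a3) in FGF13Aoe and by 1.01-fold (Mlc1) to 1.29-fold (Slc1a2) in control. Aldh1l1 and S100b were higher in replicate 2 of both groups, by 1.12-fold and 1.21-fold in FGF13Aoe and by 1.45-fold and 1.39-fold in control. Ntsr2, Gjb6 and Slc7a10 were higher in FGF13Aoe replicate 1 and in control replicate 2, and Aqp4 the other way round. Over all tested genes the median absolute difference between replicates was 0.26 log2 units in FGF13Aoe and 0.16 in control.

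Genes with the profile most like that of 4 of the members over the 4 libraries were found among 11655 candidates (mean normalized count of 50 or more) by Euclidean distance between log2 profiles centred on each gene's mean. Nearest to Gja1 were Map1lc3b, Hyi and Fam228b, at distances of 0.042, 0.045 and 0.048. Nearest to Ntsr2 were C4b, Txnip and Gt(ROSA)26Sor, at 0.270, 0.272 and 0.329. Gt(ROSA)26Sor, the noncoding transcript of the locus named in the genotype, had 1005 and 731 normalized reads in FGF13Aoe and 68.4 and 70.0 in control. C4b, a complement component, had 7596 and 4856 normalized reads in FGF13Aoe and 460 and 530 in control. Nearest to Slc1a2 were Dapp1, Neo1 and Klhl15 (0.079, 0.090 and 0.090), and nearest to S100b were Zfp873, Luzp2 and Celrr (0.075, 0.078 and 0.079). Likeness over 4 libraries says nothing of shared function.

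Other astrocyte genes moved in both directions. Of 40 listed astrocyte-enriched genes, 21 rose and 9 fell, with a median log2 change of 1.05. Gfap, the intermediate filament gene, had 111437 and 135769 normalized reads in FGF13Aoe and 30384 and 12876 in control (2.64 ± 0.45, adjusted p = 0.0095). The genes with the smallest p were Ppp1r3c, a regulator of glycogen storage, the metallothionein gene Mt2, the lipid phosphatase gene Plpp3 and Ndrg2, with log2 rises of 1.77, 2.35, 1.70 and 2.07. Predicted gene Gm45774, on the other strand, covers 73.5% of Mt2 exon sequence. The glycolytic enzyme gene Aldoc rose by 0.98. Among the falls, Acsbg1, an acyl-CoA synthetase gene, had 2857 and 2830 normalized reads in FGF13Aoe and 7350 and 8522 in control (-1.48), and the chemokine gene Cxcl14 and the transporter gene Slco1c1 had log2 changes of -2.40 and -3.14. These 3 were named after their values were seen. Without control replicates 1 and 2 in turn the list had 15 rises and 4 falls, and 12 rises and 6 falls. Gfap did not pass without control replicate 2 (2.02, adjusted p = 0.0979), nor Aldoc without either control library (1.25 and 0.72).

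Of 16 listed transcription factors of the astrocyte lineage 5 rose and 0 fell, with a median of 0.10. Sox9, which drives the switch from neurons to glia, had 3877 and 2842 normalized reads in FGF13Aoe and 1309 and 1144 in control (1.44 ± 0.18, adjusted p = 0.00427). The Notch target Hes5 rose by 3.57, Id3 by 1.197, Stat3, the mediator of cytokine-driven astrocyte formation, by 0.94, and Lhx2 by 0.67. Predicted gene Gm20421, on the other strand, covers 31.8% of Hes5 exon sequence. With either control library left out 3 of the list rose, and Stat3 (0.86 and 1.02) and Lhx2 (0.82 and 0.52) did not pass. The median was 0.31 without control replicate 1 and 0.51 without FGF13Aoe replicate 2, and the list had 6 rises and 2 falls without FGF13Aoe replicate 1. Of 27 genes raised in reactive astrocytes 26 were tested, 9 rose and 0 fell, with a median of 1.04. The 4 with the smallest p, Emp1, Ggta1, Serpina3n and Aspg, rose by 3.10, 1.36, 2.45 and 3.13, and most of the 26 did not pass. Without FGF13Aoe replicate 2 this list had 14 rises and 1 fall (median 1.57), and without FGF13Aoe replicate 1 it had 6 rises and 2 falls (median 0.41). With control replicate 1 left out it had 6 rises and 1 fall (median 0.68).

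**Figure D4:**
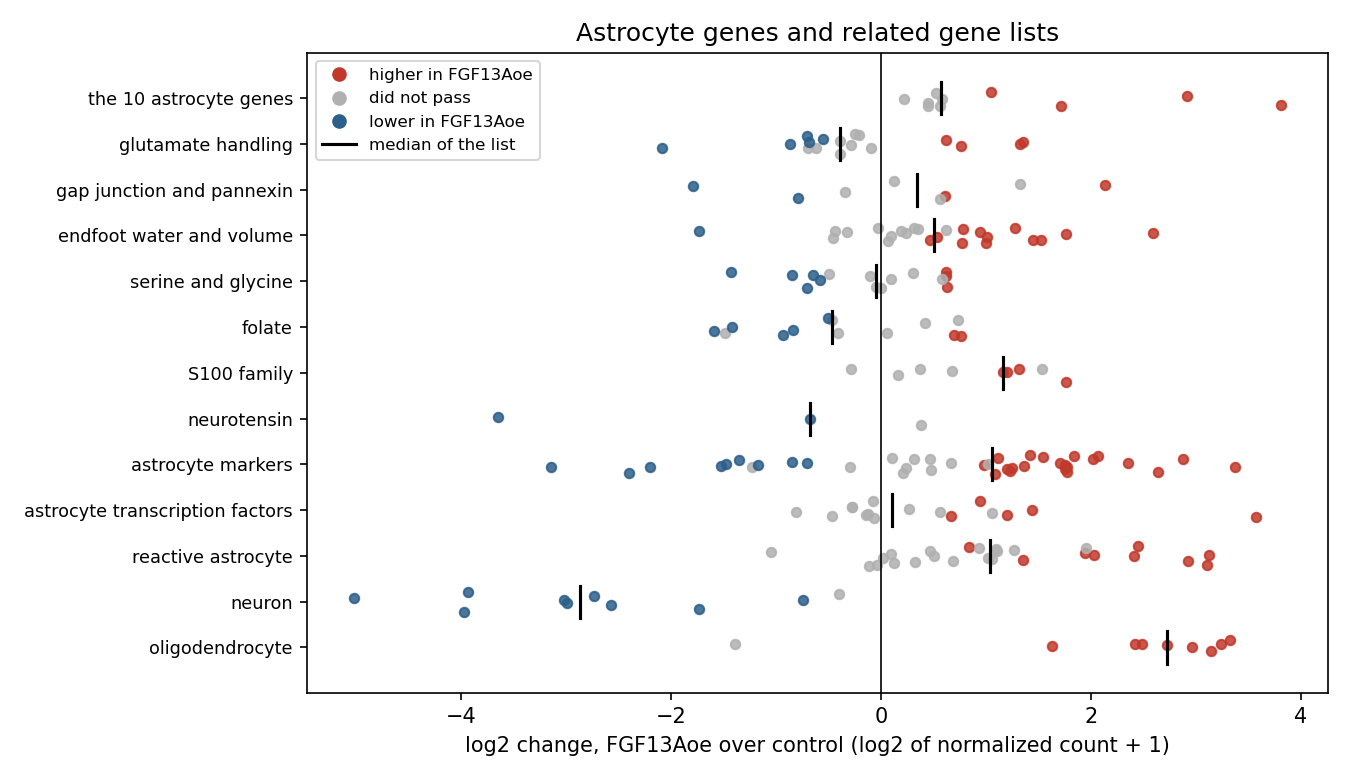
Log2 change, FGF13Aoe over control, of every tested gene in the 10 astrocyte genes and in related lists (1 list per row). Points are genes, coloured by call, and black bars are medians. The 10 astrocyte genes all lie to the right of 0, with a median of 0.57, while neuron markers have a median of -2.86 and oligodendrocyte markers one of 2.72.

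Markers of other cell types moved with the groups. Of 10 neuron markers 9 fell and 0 rose (Nefl passed the filter only through the control libraries), and their summed normalized counts were 11645 and 14392 in FGF13Aoe and 42707 and 33344 in control. Of 10 oligodendrocyte markers 9 were tested, 8 rose and 0 fell, with sums of 37363 and 36012 in FGF13Aoe and 3608 and 6318 in control. Of 6 oligodendrocyte progenitor markers 2 rose, Sox10 and Gpr17, with log2 changes of 2.70 and 2.68. In Olig1 (-0.87) and Olig2 (-0.35) both FGF13Aoe libraries lay below both control libraries, and in Pdgfra (0.87) above, but these did not pass. The remaining gene overlapped between groups. Sums of the 6 were 24049 and 36295 in FGF13Aoe and 21787 and 25382 in control. Of these, Gpr17 alone had 7728 and 13142 in FGF13Aoe and 1326 and 1861 in control. Of 9 neural progenitor markers 6 rose and 1 fell. The fall was that of Nes, with 2310 and 4006 normalized reads in FGF13Aoe and 11341 and 13805 in control. Its log2 change was -2.04 ± 0.28 (adjusted p = 0.00518). Nes and the oligodendrocyte progenitor genes named here are not in the count of named genes below. Of 9 ependymal markers 7 were tested, 0 rose and 2 fell (Ccdc153 and Hydin, named after their values were seen), with sums of 690 and 522 in FGF13Aoe and 692 and 751 in control, and Tmem212 had 0 reads. Ccdc153, with 1.21 and 2.02 in FGF13Aoe and 13.9 and 18.7 in control, and Hydin, with 4.83 and 4.05 in FGF13Aoe and 20.8 and 15.5 in control, passed the filter on low values only through the control libraries. The ependymal list had 0 falls when either control library was left out, and 1 without FGF13Aoe replicate 2. Microglia, endothelial, pericyte and choroid plexus markers were sparse, with sums of at most 441 per library in FGF13Aoe and of at most 789 in control, apart from 1727 for the choroid plexus list in control replicate 1. The part of these shifts in the values of the 10 astrocyte genes was not tested.

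The start regions of 3 genes that rose, and of 1 transporter that did not pass, are shown to let their sequences be compared. They are the bases before the RefSeq start site (GRCm38.p6), on the strand of the gene, cut where a GENCODE exon begins. Capitals mark matches, on either strand, to TTCNNNGAA (a STAT-type site), TGANTCA (an AP-1-type site) or TTGGC (part of an NFI-type site). The first is Ntsr2 (chr12:16653220-16653381, plus strand), followed by Gjb6 (chr14:57133612-57133861, minus strand), Gja1 (chr10:56377050-56377299, plus strand) and Slc1a3 (chr15:8710808-8711057, minus strand).
Ntsr2: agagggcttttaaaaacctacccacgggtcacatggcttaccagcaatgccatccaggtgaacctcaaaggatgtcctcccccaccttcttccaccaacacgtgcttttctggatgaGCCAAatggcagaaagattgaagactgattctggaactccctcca
Gjb6: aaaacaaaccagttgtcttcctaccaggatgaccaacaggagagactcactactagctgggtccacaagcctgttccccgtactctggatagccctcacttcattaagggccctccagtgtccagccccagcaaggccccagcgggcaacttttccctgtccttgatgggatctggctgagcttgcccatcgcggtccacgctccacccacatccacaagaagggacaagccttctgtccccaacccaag
Gja1: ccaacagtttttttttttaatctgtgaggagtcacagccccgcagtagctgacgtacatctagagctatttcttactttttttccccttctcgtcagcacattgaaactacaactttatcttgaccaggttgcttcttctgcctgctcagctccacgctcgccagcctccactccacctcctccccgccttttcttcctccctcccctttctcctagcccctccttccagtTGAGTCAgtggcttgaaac
Slc1a3: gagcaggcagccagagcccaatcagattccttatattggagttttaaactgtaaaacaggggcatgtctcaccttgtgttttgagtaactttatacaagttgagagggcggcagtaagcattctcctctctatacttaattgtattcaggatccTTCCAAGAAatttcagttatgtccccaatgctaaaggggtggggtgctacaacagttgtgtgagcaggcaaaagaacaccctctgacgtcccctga
Ntsr2 held a match to TTGGC, Gja1 an AP-1-type site beginning 19 bases before the start and Slc1a3 a STAT-type site beginning 96 bases before it. The Gjb6 window held 0 of the 3 motifs. In all 32851 RefSeq promoter windows of 250 bases, TTGGC was found in 41.5%, TTCNNNGAA in 7.02% and TGANTCA in 6.75%. In its full window of 250 bases, of which the end lies in annotated exon, Ntsr2 also held a STAT-type match, beginning 62 bases before the start. A match describes sequence and is not a measure of binding.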

How the data were processed

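STAR, DESeq2 and mm10 are named in the submitters' processing notes; for versions, annotation release and strand the entry is: not given in the sources used here. Deposited by the authors were a normalized read signal per gene and library (read counts divided by a size factor), with their log2 fold change, its standard error and Wald score, and p-values. Dividing by the smallest step gave whole reads for 100% of values (tolerance 1e-06). The step of control replicate 1 was 0.991, too close to 1 for recovery to be accepted, so count tests used the other 3 libraries. Its reads printed here divide by that step.

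Sample titles gave group and replicate number. The FGF13Aoe and control libraries entered limma 3.58.1 (R 4.3.3; intensity trend) on log2(normalized count + 1) over 15204 genes with at least 10 in at least 2 libraries. A change on this log2 scale understates that of a low gene. The members and lists were chosen with earlier results of these data known, so lists are described by counts and medians. Named were all members, up to 4 genes of each list with the smallest p, genes needed for small counts, and direct partners of members; some of these are not reported here. Positions and exon lengths came from GENCODE M21 (GRCm38), which may differ from the authors' annotation, and promoters from RefSeq. No library was a copy of another: the chi-square statistic between replicates, per degree of freedom, was 28.6 in FGF13Aoe and 11.2 in control. The procedure was tested on simulated data, with changes set in a small part of the genes. There limma on 4 simulated libraries recovered 82% of 4-fold and 23% of 2-fold changes, and 9.48% of its calls were false. A gene that did not pass may thus have changed, and a gene that passed may not have. In the data 35.3% of tested genes passed, more than the part changed in the simulation, so these rates may differ there. Alternatives were other pseudocounts, filters and scalings, no trend, a replicate block, each library left out, the authors' p-values, and, for the 3 libraries with accepted reads, DESeq2 1.42.0 and edgeR 4.0.16.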

Additional observations from a re-analysis of the deposited data

How the results depend on the processing

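The 4 rises and 0 falls among the 10 astrocyte genes were also found with median centring, TMM scaling, pseudocounts of 0.5 and 5, 2 looser filters, the replicate block and a fit with no trend, and all 10 genes kept a positive log2 change under every alternative that tested them. A mean of at least 50 left Gjb6 untested and 3 rises. The authors' deposited table gave 5 rises, where 13.9% of its 16301 genes with an adjusted p rose. On the reads of 3 libraries DESeq2 gave 3 rises and edgeR 2 (Ntsr2 and Aqp4), where control was 1 library, assumed to vary like the FGF13Aoe libraries. Leaving out each library gave 3 to 6 rises and 0 to 0 falls. Over all tested genes, 2467 rose and 2906 fell, against 537 and 1086 by edgeR and 732 and 975 by DESeq2 on 3 libraries, and 551 to 2822 and 867 to 3447 when each library was left out. The same-numbered replicates share only a number (correlation of deviations -0.10), and the replicate block gave 2049 rises and 2647 falls over all genes, while a crossed pairing, added after the data were seen, gave 2816 and 3257.

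By the longest transcript, levels per kb moved by more than 1 SD for Slc1a3 (5122 in FGF13Aoe and 3728 in control), Gja1 (1324 and 641), Aqp4 (1419 and 433), Gjb6 (15.5 in FGF13Aoe) and Aldh1l1 (2546 in FGF13Aoe). The cause is the shorter length. The difference in log2 ratio kept its sign in all 3 pairs, at 0.04 to 0.19 for Slc1a2 over Slc1a3, 1.23 to 2.50 for Gjb6 over Gja1 and 1.34 to 1.64 for Aqp4 over Mlc1 when each library was left out, and the ratio for Gjb6 over Gja1 was 1.08 with a pseudocount of 5. Of 56 named genes called with 4 libraries, 26 were called in each set of 3. Among named genes the sign changed for Dag1 (-0.007 to 0.133 when each library was left out) and Slc3a2 (-0.610 to 0.523 when each library was left out, 0.026 with median centring, 0.06 in the authors' deposited table, 0.031 by edgeR and 0.025 by DESeq2); the cause was not tested. Depth limits Gjb6, with 2 and 7 reads in the control libraries.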
